A study of Mus musculus with 8 samples.

Results

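The Wnt ligands, their Frizzled receptors and the secreted proteins that block them were followed in mouse ear skin after repeated application of calcipotriol. The set was defined by gene symbol, with earlier results of these data known: every gene named Wnt, Fzd, Dkk or Sfrp followed by a digit, together with Frzb, Wif1, Lrp5, Lrp6, Axin2 and Notum. It holds 43 of the 41388 genes in the count tables, namely 19 Wnt ligands, 10 Frizzled receptors, 2 co-receptors, 10 secreted antagonists and 2 feedback genes. The libraries came from the whole ear of adult wild-type (WT) C57Bl/6 mice. In 4 mice the ear received the vehicle, ethanol (EtOH), and in the other 4 it received MC903, a code name of calcipotriol, at 1 nmol each day over 12 days. Both groups carried the same genotype, and calcipotriol, which activates the vitamin D receptor, is widely used on mouse ears to raise an itchy dermatitis.

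Wnt proteins are secreted, lipid-modified signals. In the canonical branch a Wnt bridges a Frizzled receptor and the co-receptor LRP5 or LRP6, which stops a destruction complex built on axin from degrading beta-catenin; beta-catenin then enters the nucleus and acts with TCF/LEF factors on target genes, among them Axin2 and Notum, which feed back to damp the signal. Secreted antagonists act upstream, either by binding the ligand (Wif1 and the secreted Frizzled-related proteins, of which Frzb is one) or by occupying LRP5 and LRP6 (Dickkopf proteins such as Dkk1). In skin the pathway is known for its part in forming and cycling hair follicles, in the upkeep of the basal epidermis and in dermal fibroblast identity.

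The 4 vehicle libraries held between 14223908 and 16837221 counts, and the 4 MC903 libraries between 12310466 and 15575518. Cyp24a1, the vitamin D-degrading enzyme that served as a check of the labels, was at 18.8 ± 1.73 CPM in vehicle and 3837 ± 403 CPM in MC903 ears (mean ± SD, n = 4 per group; CPM is the count scaled to its library's total after TMM adjustment). Keratinocyte and dermal fibroblast markers, which define the labelled tissue, were abundant in every library, and none of the 15 marker lists had a gene at 0 in all libraries. Vehicle replicate 2 stood apart: 10 salivary gland genes summed to 381763 CPM there, against 201 to 477 CPM in the other 7 libraries. It was also above the other vehicle ears in summed adipocyte markers, at 4069 CPM against 1526 to 2278 CPM. Adipocyte sums in MC903 ears were 759 to 1922 CPM, so the groups overlapped. Vehicle replicate 4 was above the other vehicle ears in summed hair shaft markers, at 282 CPM against 71.2 to 114 CPM. It was below them in summed skeletal muscle markers, at 3474 CPM against 8967 to 10492 CPM. Between groups, leukocyte markers rose in 12 of 12 tested genes (summed level 625 to 805 CPM in vehicle and 1537 to 2284 CPM in MC903), and summed keratinocyte markers were 14583 to 17562 CPM in vehicle and 18517 to 22700 CPM in MC903. Of those 10 keratinocyte genes 3 were called higher, Krt1, Krt14 and Dsc1, and 1 lower, Krt15, with a median log2 fold change of 0.03 (genes named after their values were seen). Cartilage markers fell in 10 of 11 tested genes and Schwann cell markers in 9 of 9. Of 8 tested salivary markers 6 were called lower through vehicle replicate 2, and in all 8 the groups overlapped. Tested genes were also called lower among markers of the hair shaft (9 of 15 lower, 3 higher), follicle bulge and outer sheath (6 of 10 lower, 1 higher), adipocyte (6 of 10 lower), sebaceous (6 of 10 lower), skeletal muscle (4 of 10 lower) and pericyte and smooth muscle markers (3 of 8 lower). The summed hair shaft level was nonetheless higher in MC903, at 71.2 to 282 CPM in vehicle and 493 to 1143 CPM in MC903. That sum followed mainly Tchh, with means of 32.9 CPM in vehicle and 712 CPM in MC903, and Krt36 (0.818 and 96.0 CPM). It therefore does not reflect the 9 genes called lower. Bulge and outer sheath sums overlapped, at 838 to 1152 CPM in vehicle and 924 to 1376 CPM in MC903. Their largest part was Postn, not called, with means of 464 and 614 CPM (these 3 genes were named after their values were seen). Dermal fibroblast markers were lower in 1 of 10, endothelial markers higher in 1 of 10, melanocyte markers higher in 1 of 8, and dermal papilla markers lower in 1 and higher in 2 of 7. Beside these marker counts, 20.2% of all genes tested were called lower and 21.3% higher. In such bulk tissue, fewer cells of a type and less RNA per cell cannot be told apart.

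Most of the measurable Wnt genes were lower in MC903 ears. Of the 43 genes, 36 had enough counts to test and 7 did not; 19 of the 36 were called lower (52.8%) and 3 were called higher (8.33%), at an adjusted p under 0.05 in edgeR's quasi-likelihood test. Over all 16105 genes tested, 41.5% were called, 20.2% lower and 21.3% higher. With vehicle replicates 2 and 4 both left out, 11 of the 36 were called lower and 3 higher (Wnt16 in place of Wnt4), and without vehicle replicate 2 alone 15 and 3. The median log2 fold change (MC903 over vehicle, so negative where MC903 is lower) was -0.56 over the 36 genes and -0.03 over all genes. A gene that is only just detected in the vehicle group could pass the count filter through that group alone. Wnt10b did so, over the filter level in 4 vehicle and 0 MC903 libraries. Wnt6 and Wnt11 were each over it in 4 vehicle and 3 MC903 libraries. Among the other 33, over that level in all libraries of both groups, 18 were called lower and 3 higher. The 4 MC903 values all lay below the 4 vehicle values in 14 of the 36 genes and all above them in 5, compared with 18.9% and 19.8% of all genes (38.7% in either direction). Changes of at least 2-fold were called in 6 of the 36, Wnt10b, Wif1, Frzb, Wnt2, Axin2 and Wnt10a, and in 17.1% of all genes. The plot of fold changes by role shows that the 3 called rises, Wnt4, Wnt10a and Sfrp1, stood among ligands and antagonists, and that no receptor or co-receptor was called higher.

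**Figure D1:**
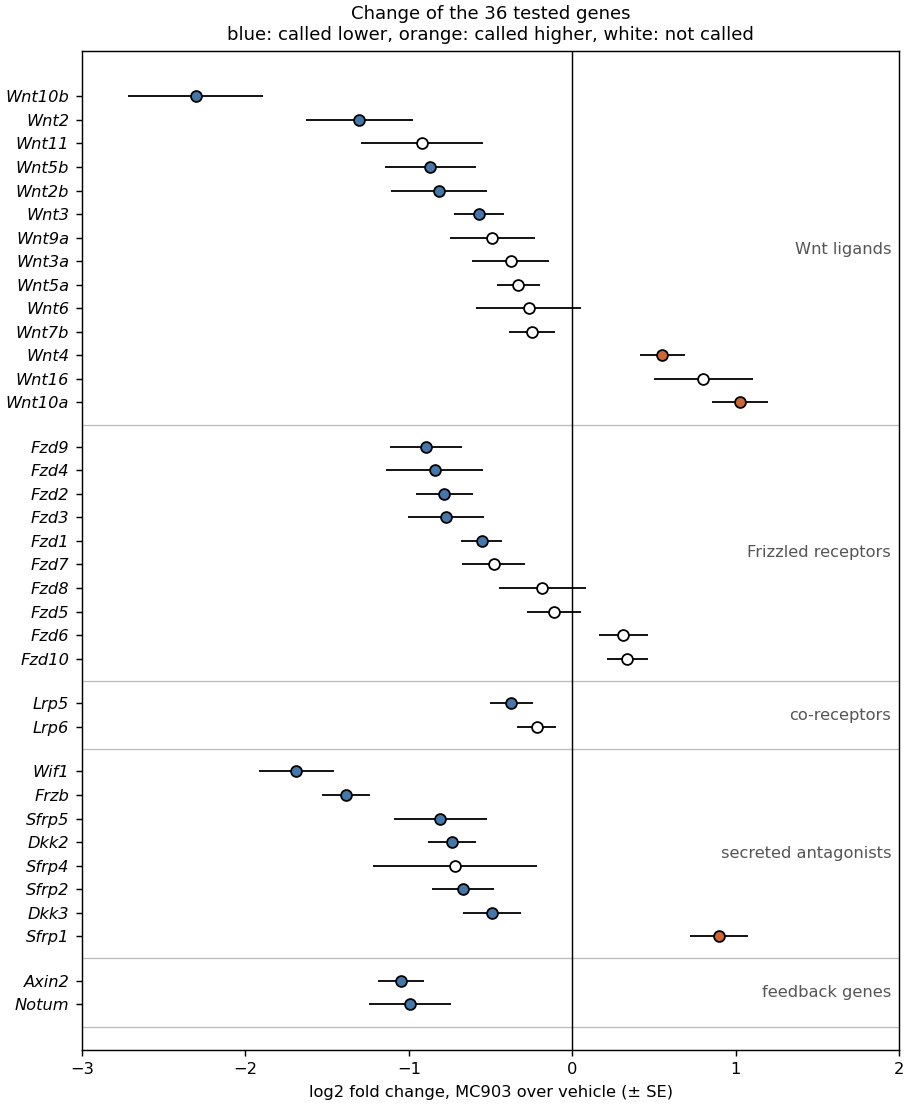
Log2 fold change of MC903 over vehicle (x axis, bars are ± SE) for the 36 tested genes, grouped by role on the y axis; filled points passed the test. Values run from -2.31 for Wnt10b to 1.02 for Wnt10a, and 30 of the 36 lie below 0.

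The ligands changed in both directions. Wnt4 and Wnt10a rose, while Wnt10b, Wnt2, Wnt3, Wnt5b and Wnt2b fell, and 7 of the 14 tested ligands did not pass the test. Falls were thus 5 of 14 and rises 2 of 14, against 20.2% and 21.3% of all genes tested. Wnt10a, a ligand needed for normal teeth, hair and sweat glands, measured 7.72, 6.30, 5.88 and 9.18 CPM in vehicle replicates 1 to 4 and 13.97, 16.2, 16.0 and 12.98 CPM in MC903 replicates 1 to 4. Every MC903 ear was above every vehicle ear, with a log2 fold change of 1.02 ± 0.17 (SE; edgeR adjusted p = 0.000666). Wnt4, a ligand of the epidermis that is best known from kidney and reproductive tract development, was at 54.7, 42.3, 41.4 and 47.3 CPM in vehicle and 73.9, 65.8, 75.3 and 56.6 CPM in MC903. Its groups were also separate, though by a narrow margin, since the lowest MC903 ear was close to the highest vehicle ear (0.55 ± 0.14, adjusted p = 0.00783 by edgeR). The Wnt4 call was lost with library sizes alone (log2 fold change 0.46, edgeR adjusted p = 0.0990) and with vehicle replicates 2 and 4 both left out (0.50, adjusted p = 0.0843), within a range of 0.00117 to 0.0990 over 18 alternatives.

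Wnt10b, which promotes hair growth and holds back fat cell formation, had the lowest fitted log2 fold change of the set, at few counts. It measured 1.53, 1.46, 1.09 and 1.19 CPM in the vehicle ears and 0.405, 0.167, 0.0663 and 0.406 CPM in the MC903 ears. Those levels rest on 83 counts in vehicle and 14 counts in MC903 ears, all libraries summed. MC903 replicates 2 and 3 held 2 and 1 counts, under the floor of 3 used here, and the gene passed the filter through the vehicle group alone, so the size of its fall is uncertain. The groups did not overlap (-2.31 ± 0.42, adjusted p = 0.00118, edgeR). Wnt2, a canonical ligand, was at 3.71, 2.38, 3.03 and 1.37 CPM in vehicle and 1.01, 1.00, 1.39 and 0.811 CPM in MC903. Here vehicle replicate 4 lay inside the MC903 range, and the log2 fold change was -1.30 ± 0.33 (adjusted p = 0.00816, edgeR). Wnt3, which acts in the epithelium of the hair follicle, measured 32.4, 33.96, 26.0 and 23.5 CPM in vehicle and 19.4, 16.3, 20.8 and 21.3 CPM in MC903. All MC903 ears were lower (-0.57 ± 0.15, adjusted p = 0.0112, edgeR).

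The calls for Wnt5b and Wnt2b were less firm. Wnt5b, a close relative of Wnt5a, was at 2.12, 3.15, 1.5996 and 3.12 CPM in vehicle ears and 1.35, 1.33, 1.66 and 1.05 CPM in MC903 ears, with overlap (log2 fold change -0.87 ± 0.28; edgeR adjusted p = 0.0276). The call did not survive leaving out vehicle replicate 2 or 4 or MC903 replicate 1, 2 or 4 (adjusted p 0.0509 to 0.0774, and 0.0129 to 0.320 over all alternatives). With vehicle replicates 2 and 4 both left out, its log2 fold change was -0.46. Wnt2b, the paralog of Wnt2, was at 2.83, 2.77, 2.06 and 3.12 CPM in vehicle ears and 0.742, 1.92, 1.86 and 1.62 CPM in MC903 ears, without overlap (-0.82 ± 0.29; edgeR adjusted p = 0.0437). The call did not survive leaving out vehicle replicate 1, 2 or 4 or MC903 replicate 1, 3 or 4 (adjusted p 0.0577 to 0.0968) and without a count filter (0.0515), with 0.0289 to 0.203 over all alternatives.

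Among the ligands that did not pass, Wnt5a, the best known ligand of the beta-catenin-independent branch, was one of the most abundant. It was at 43.2, 45.5, 46.8 and 54.2 CPM in vehicle and 31.4, 39.7, 37.6 and 42.4 CPM in MC903. The groups were separate but the difference was small (-0.33 ± 0.13, adjusted p = 0.0594, edgeR), and it passed without MC903 replicate 4 (adjusted p = 0.0440) and with upper quartile scaling (0.0219), with 0.0219 to 0.290 over all alternatives. Wnt16, known for its part in bone strength, was 2.06 ± 0.83 CPM in vehicle ears and 3.58 ± 0.94 CPM in MC903 ears (0.80 ± 0.30, adjusted p = 0.0530, edgeR). The difference passed without vehicle replicate 4 (1.08; adjusted p = 0.0157), with RLE scaling (0.0486), DESeq2 (0.0416) and limma-voom (0.0393), and with vehicle replicates 2 and 4 both left out (1.295; 0.0169), and its adjusted p was 0.0157 to 0.134 over all alternatives. Wnt11, another ligand of the beta-catenin-independent branch, was 2.02 ± 0.76 CPM in vehicle ears and 1.05 ± 0.50 CPM in MC903 ears (-0.92 ± 0.37, adjusted p = 0.0677, edgeR). It passed in the absence of vehicle replicate 4 or MC903 replicate 4 (adjusted p 0.0447 and 0.0259), on library sizes alone (0.0413) and on upper quartile scaling (0.0488), in a range of 0.0259 to 0.173. Wnt7b, a ligand of the epidermis, was 14.1 ± 1.91 CPM in vehicle ears and 11.9 ± 0.97 CPM in MC903 ears (-0.25 ± 0.14). Wnt3a, Wnt9a and Wnt6 had log2 fold changes of -0.38 ± 0.23, -0.49 ± 0.26 and -0.27 ± 0.32, and their groups overlapped.

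The remaining 5 ligands were close to absent in every library. Summed over the 4 vehicle and the 4 MC903 libraries, Wnt1 had 2 and 3 counts, Wnt7a had 7 and 4, Wnt8b had 5 and 7, and Wnt9b had 8 and 5. Wnt8a had 0 and 4 counts, where 0 counts still allow up to 3. A count of 3 equals 0.171 to 0.25 CPM depending on the library, which leaves no difference detectable in these 5 genes at such depth.

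**Figure D2:**
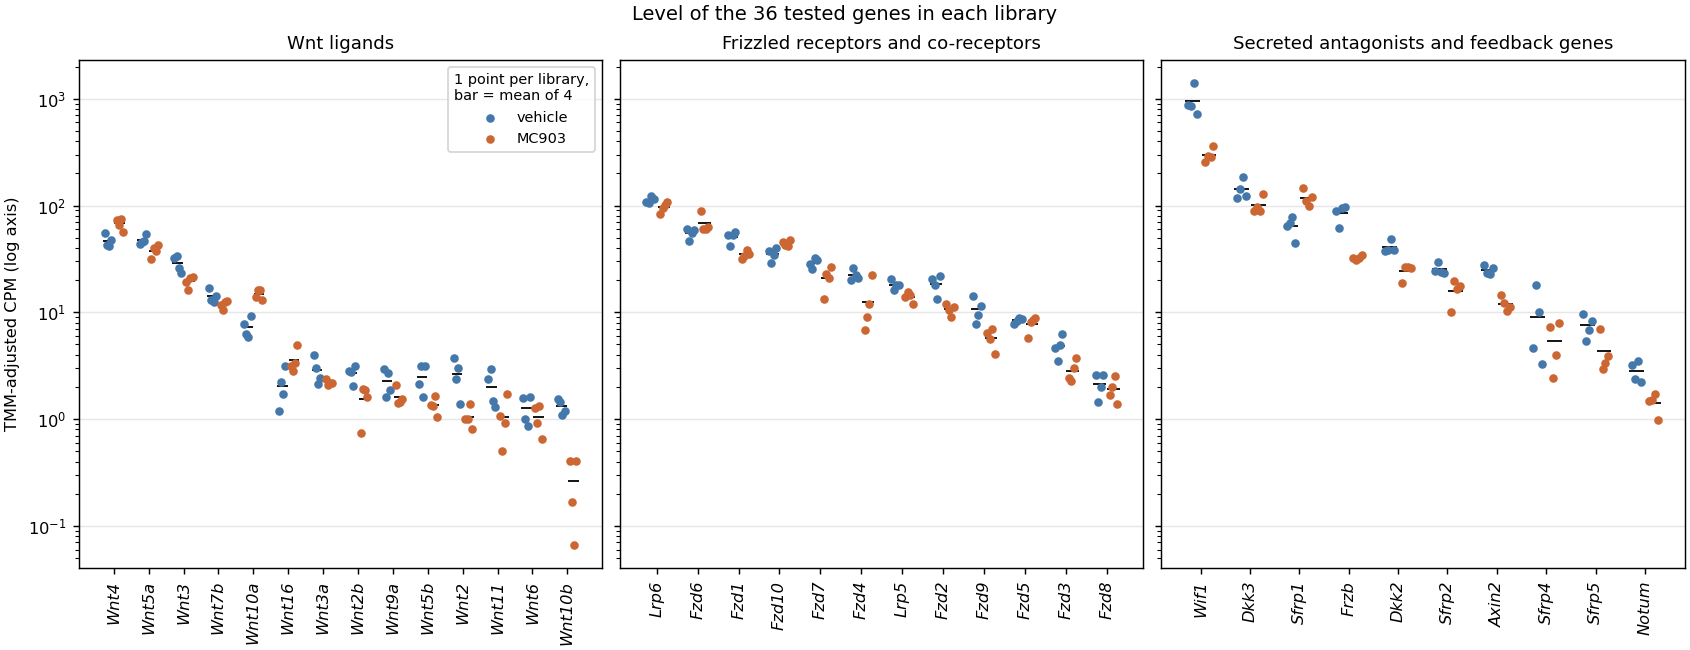
TMM-adjusted CPM on a log axis for the 36 tested genes, 1 point per library (blue vehicle, orange MC903) and a black bar for the mean of 4. Wif1 stands above all other genes in both groups, at 716 to 1398 CPM in vehicle and 257 to 360 CPM in MC903.

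Set against each other per kilobase of transcript (RPKM, from the same TMM-scaled counts), Wnt4 had the highest mean level of the ligands in both groups. In vehicle ears Wnt4 (11.1 ± 1.46 RPKM) and Wnt3 (9.42 ± 1.63 RPKM) overlapped between libraries. Wnt5a (6.06 ± 0.61 RPKM) came next and was separate from both, followed by Wnt7b (3.20 ± 0.43 RPKM) and Wnt10a (2.95 ± 0.61 RPKM), which overlapped each other. In MC903 ears Wnt4 (16.2 ± 2.06 RPKM) was clear of all other ligands, and Wnt3 (6.33 ± 0.73 RPKM), Wnt10a (6.00 ± 0.65 RPKM) and Wnt5a (4.83 ± 0.59 RPKM) formed an overlapping group, with Wnt7b (2.70 ± 0.22 RPKM) below. The summed level of the 19 ligands was 39.5 ± 3.57 RPKM in vehicle and 40.6 ± 2.21 RPKM in MC903, and its libraries overlapped. Within that sum, the share of Wnt4 was 27.9% ± 1.75 in vehicle and 39.8% ± 3.49 in MC903, and that of Wnt10a was 7.44% ± 1.37 and 14.8% ± 1.48. The share of Wnt3 was 23.8% ± 3.50 and 15.6% ± 1.79, and for all 3 ligands the shares of the groups did not overlap. The ligand mix thus shifted toward Wnt4 and Wnt10a at a similar summed level.

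**Figure D3:**
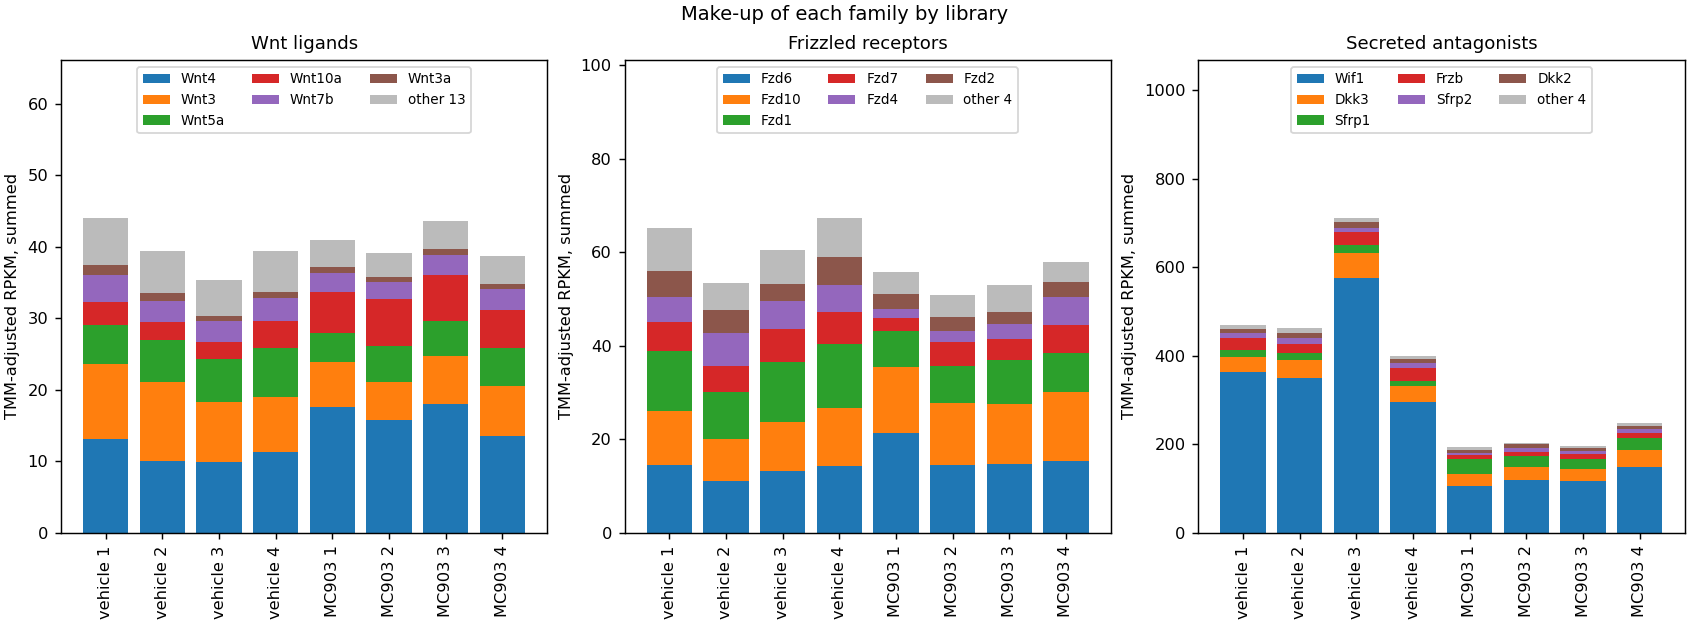
Summed TMM-adjusted RPKM (y axis, starting at 0) of the ligands, Frizzled receptors and secreted antagonists in each of the 8 libraries, with the 6 most abundant members of each family in colour. The ligand sums overlap between groups, whereas the antagonist sums are 399 to 712 RPKM in vehicle and 193 to 247 RPKM in MC903.

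Several ligand genes lie side by side in the genome (mm10). Wnt6 and Wnt10a are 6193 bases apart on chromosome 1, Wnt10b and Wnt1 11706 bases apart on chromosome 15, Wnt3a and Wnt9a 16175 bases apart on chromosome 11, and Wnt9b and Wnt3 24328 bases apart elsewhere on chromosome 11. Wnt10a (74791516 to 74804179) rose from 7.27 ± 1.496 to 14.8 ± 1.59 CPM, while Wnt6 (74771892 to 74785322), with 1.27 ± 0.40 and 1.04 ± 0.32 CPM, did not pass the test. Of the pair on chromosome 15, Wnt10b fell and Wnt1 was near 0, and of the last pair Wnt3 fell and Wnt9b was near 0. Neither Wnt3a nor Wnt9a passed the test. No neighbour pair shared exon bases in the count tables.

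Of the 10 Frizzled receptors, 5 were called lower, Fzd1, Fzd2, Fzd3, Fzd4 and Fzd9, and none higher. The shares over all genes tested were 20.2% lower and 21.3% higher. Fzd1, a broadly expressed receptor of canonical signals, measured 53.3, 41.9, 53.0 and 56.6 CPM in vehicle and 31.8, 33.7, 38.7 and 35.2 CPM in MC903. The groups were separate (-0.55 ± 0.13, adjusted p = 0.00503, edgeR). Fzd2, whose protein also binds Wnt5a, was at 20.5, 17.8, 13.3 and 22.0 CPM in vehicle and 12.1, 10.5, 9.01 and 11.2 CPM in MC903 (-0.78 ± 0.17, adjusted p = 0.00429, edgeR). Fzd9 was at 14.3, 7.84, 9.48 and 11.4 CPM in vehicle and 6.41, 5.58, 7.02 and 4.06 CPM in MC903 (-0.90 ± 0.22, adjusted p = 0.00794, edgeR). In both of these genes each MC903 ear was below each vehicle ear.

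Fzd4, the receptor that also takes the non-Wnt ligand norrin in blood vessels, varied widely among MC903 ears. It was 20.1, 26.0, 22.3 and 21.1 CPM in vehicle and 6.81, 9.08, 11.9 and 22.3 CPM in MC903. Replicates 1 to 3 were well below the vehicle range and MC903 replicate 4 was inside it (-0.84 ± 0.30, adjusted p = 0.0398, edgeR). Without MC903 replicate 4 the log2 fold change was -1.27 (adjusted p = 0.000535), and without any other single library the call was lost (0.0534 to 0.105), in a range of 0.000535 to 0.138 over all alternatives. MC903 replicate 4 also had the highest summed adipocyte (1922 CPM), sebaceous (5406 CPM) and skeletal muscle (6306 CPM) markers of its group, where the other 3 libraries were at 759 to 1141, 2588 to 3132 and 1871 to 4299 CPM. It was likewise highest in summed fibroblast, keratinocyte, follicle bulge, dermal papilla, pericyte and endothelial markers, the last at 293 CPM against 213 to 269 CPM. In summed leukocyte and melanocyte markers it was the lowest of its group. Among vehicle ears, replicate 2 was the highest in Fzd4 and in summed adipocyte markers, whereas replicate 4 was the highest in sebaceous and replicate 1 in skeletal muscle markers. The part of any of these tissues in the Fzd4 level was not tested. Fzd3, which guides growing axons and aligns hair cells, was 4.85 ± 1.14 CPM in vehicle ears and 2.85 ± 0.67 CPM in MC903 ears (-0.77 ± 0.23, adjusted p = 0.0211, edgeR). The call did not survive leaving out vehicle replicate 4 or MC903 replicate 2 (adjusted p 0.0632 and 0.0638), and 0.0119 to 0.0638 was the range over all alternatives.

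The 2 receptors with values above the vehicle ears in every MC903 library, Fzd6 and Fzd10, did not pass the test. Fzd6, which sets the direction in which mouse hairs point, was at 59.6, 46.0, 54.8 and 59.0 CPM in vehicle and 88.5, 60.0, 60.8 and 63.2 CPM in MC903, where replicate 1 was far above the rest (0.31 ± 0.15, adjusted p = 0.120, edgeR). Fzd10 was at 37.6, 29.0, 34.05 and 40.4 CPM in vehicle and 45.5, 42.7, 41.9 and 48.0 CPM in MC903 (0.34 ± 0.13, edgeR adjusted p = 0.0532). It passed without vehicle replicate 4 (adjusted p = 0.0437), with RLE scaling (0.0448) and with DESeq2 (0.0391), in a range of 0.0391 to 0.419. Fzd7, a receptor of canonical signals in epithelial stem cells, was 29.2 ± 3.06 and 20.9 ± 5.66 CPM (-0.48 ± 0.19, adjusted p = 0.0635, edgeR). It passed without MC903 replicate 4 (-0.62, adjusted p = 0.0245), with upper quartile scaling (0.0288) and with limma-voom (0.0496), in a range of 0.0245 to 0.136. Fzd5 and Fzd8 were at 8.44 ± 0.49 and 2.15 ± 0.54 CPM in vehicle, with log2 fold changes of -0.11 ± 0.17 and -0.18 ± 0.27. Per kilobase, Fzd6 (13.3 ± 1.52 RPKM), Fzd1 (12.3 ± 1.54 RPKM) and Fzd10 (10.8 ± 1.52 RPKM) overlapped at the top of the vehicle order. In MC903 Fzd6 (16.5 ± 3.31 RPKM) and Fzd10 (13.7 ± 0.86 RPKM) overlapped and were both clear of Fzd1 (8.37 ± 0.70 RPKM). The share of Fzd10 in the summed receptor level was 17.5% ± 0.75 in vehicle and 25.2% ± 0.66 in MC903, and the groups did not overlap.

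The co-receptors changed little. Lrp6 was one of the most abundant genes of the set by counts, at 107, 105, 122 and 116 CPM in vehicle and 82.7, 95.6, 102 and 107 CPM in MC903, which misses the threshold (-0.22 ± 0.12, adjusted p = 0.165, edgeR). Lrp5, best known for setting bone mass, was at 20.4, 16.1, 18.1 and 17.9 CPM in vehicle and 13.97, 15.5, 14.5 and 12.0 CPM in MC903, groups that did not overlap (-0.37 ± 0.13, adjusted p = 0.0413, edgeR). That call was lost in the absence of vehicle replicate 1, 3 or 4 or MC903 replicate 1, 3 or 4 (adjusted p 0.0526 to 0.108), and also with library sizes alone (0.104), RLE scaling (0.0520), no count filter (0.0744) or DESeq2 (0.0618). The range over all alternatives was 0.0216 to 0.108.

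The secreted antagonists gave the largest change in absolute level. Of 8 tested, 6 fell, 1 rose and Sfrp4 did not pass, where 20.2% of all genes were called lower and 21.3% higher. Wif1, Wnt inhibitory factor 1, binds Wnt ligands outside the cell and was the most abundant gene of the set. It measured 879, 846, 1398 and 716 CPM in vehicle and 257, 291, 285 and 360 CPM in MC903. No MC903 ear was above 359.5 CPM and no vehicle ear was under 716 CPM, and the level was 3.22-fold lower (-1.69 ± 0.23, adjusted p = 0.000167, edgeR). Frzb, a secreted Frizzled-related protein first known from cartilage, was at 88.2, 61.9, 94.4 and 96.4 CPM in vehicle and 32.5, 30.7, 32.5 and 34.7 CPM in MC903. The MC903 ears were nearly equal to one another and all below the vehicle ears, at 2.61-fold lower (-1.39 ± 0.15, adjusted p = 3.4e-05, edgeR). Beside these falls, summed cartilage markers were 1080 to 1443 CPM in vehicle and 315 to 490 CPM in MC903, summed Schwann cell markers were 925 to 1304 CPM and 503 to 590 CPM for the respective groups. Vehicle replicate 3 was the highest of its group in Wif1 and in both sums, whereas MC903 replicate 1 was the highest of its group in both sums and the lowest in Wif1. Vehicle replicate 4 was the highest in Frzb. None of either list's genes was at 0 in all libraries, and the part of these tissues in the fall of Wif1 and Frzb was not tested.

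Dkk2, a Dickkopf protein that binds LRP5 and LRP6, was at 37.5, 38.3, 48.2 and 38.7 CPM in vehicle and 18.8, 26.7, 26.7 and 25.8 CPM in MC903, without overlap (-0.73 ± 0.15, adjusted p = 0.00231, edgeR). Sfrp2, made by dermal fibroblasts, was at 24.5, 29.7, 24.0 and 23.1 CPM in vehicle and 10.1, 19.5, 16.5 and 17.7 CPM in MC903. These groups were separate as well (-0.67 ± 0.19, adjusted p = 0.0155 by edgeR, and 0.0759 with vehicle replicates 2 and 4 both left out, in a range of 0.00648 to 0.0759). Of 10 tested fibroblast markers 1 was called lower, and the median log2 fold change of that list was -0.11. Summed fibroblast markers were 11390 to 15703 CPM in vehicle and 7867 to 11574 CPM in MC903, with overlap. The part of fibroblasts in the fall of Sfrp2 was not tested. Sfrp5 was 7.55 ± 1.88 CPM in vehicle ears and 4.30 ± 1.85 CPM in MC903 ears, with overlap (-0.81 ± 0.28, adjusted p = 0.0400, edgeR). The call did not survive leaving out vehicle replicate 1, 3 or 4 or MC903 replicate 2, 3 or 4 (adjusted p 0.0591 to 0.111), in a range of 0.00349 to 0.111. Dkk3, the most divergent Dickkopf protein, was at 118, 142, 186 and 122 CPM in vehicle and 89.5, 96.0, 89.1 and 129 CPM in MC903, so that MC903 replicate 4 was above 2 vehicle ears (-0.49 ± 0.18, adjusted p = 0.0454, edgeR). That call was lost in the absence of vehicle replicate 2 or 3 or MC903 replicate 1, 2 or 3 (adjusted p 0.0788 to 0.137) and with library sizes alone (0.0540), in a range of 0.0134 to 0.137.

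Sfrp1 went the other way. This secreted Frizzled-related protein was at 64.0, 68.2, 78.0 and 45.0 CPM in vehicle and 146, 109, 99.3 and 120.4 CPM in MC903. All MC903 ears were above all vehicle ears (0.90 ± 0.18, adjusted p = 0.00223, edgeR). The direction and the call held in each of the 18 alternatives, with log2 fold changes of 0.74 to 1.00. Sfrp4 ranged from 3.31 to 17.9 CPM among vehicle ears alone, with its highest value in vehicle replicate 2, and from 2.42 to 7.95 CPM in MC903 (-0.72 ± 0.50, adjusted p = 0.272, edgeR). Without vehicle replicate 2 its log2 fold change was -0.15, and without other single libraries it was as low as -0.9956 (vehicle replicate 4 left out). Of the antagonists too low to test, Dkk1 had 1 count in vehicle and 0 in MC903, and Dkk4 had 20 and 10 counts over the 4 libraries of each group.

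Summed per kilobase, the 10 antagonists were at 511 ± 138 RPKM in vehicle and 209.6 ± 25.2 RPKM in MC903, without overlap. Dkk3 was counted among them by its symbol. Wif1 made up 76.8% ± 3.03 of that sum in vehicle and 58.5% ± 2.57 in MC903, and Sfrp1 made up 2.89% ± 0.42 and 13.1% ± 2.83. In MC903 ears Wif1 (123 ± 18.0 RPKM) stayed first, and Sfrp1 (27.2 ± 4.63 RPKM) overlapped with Dkk3 (30.1 ± 5.70 RPKM) for second place. In vehicle ears the fourth-ranked Sfrp1 (14.6 ± 3.16 RPKM) was below all libraries of the third-ranked Frzb (26.3 ± 4.92 RPKM). The summed antagonist level was 13.2 ± 4.70 times the summed ligand level in vehicle and 5.19 ± 0.84 times in MC903. With Wif1 left out those ratios were 2.95 ± 0.63 and 2.15 ± 0.31, and the libraries overlapped, so the separation of the ratio between groups rested on Wif1.

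Both feedback genes were about 2-fold lower. Axin2, a scaffold of the beta-catenin destruction complex that is itself a common readout of canonical Wnt signalling, was at 27.7, 23.5, 23.0 and 25.9 CPM in vehicle and 14.6, 12.2, 10.3 and 11.3 CPM in MC903. The groups were far apart and tight within themselves (-1.05 ± 0.14, adjusted p = 0.000169, edgeR). Notum, an enzyme that strips the lipid from Wnt proteins, was at 3.24, 2.38, 3.48 and 2.25 CPM in vehicle and 1.48, 1.4997, 1.72 and 0.974 CPM in MC903, again without overlap (-0.99 ± 0.25, adjusted p = 0.00902, edgeR). The library protocol in the labels names a second-strand reaction and no step that marks strand, and 29.4% of Notum's exon bases also lie in the antisense gene Notumos, so reads of these genes may not be told apart. The same holds for 16.1% of Sfrp2 (Gm26771), 10.02% of Wnt11 (Gm8398), 8.72% of Notum (Myadml2os), 4.58% of Wnt5a (Gm2670), 3.80% of Axin2 (Gm11670) and 0.861% of Wnt7b (AU022754). The falls of Axin2 and Notum were called in each of the 18 alternatives, with log2 fold changes of -1.15 to -0.97 and -1.24 to -0.85.

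Promoter sequence is shown for Axin2 and Wif1, which with Frzb had the smallest p among genes changed at least 2-fold. Each is taken before the RefSeq transcript start on GRCm38.p6, on the gene's own strand, and only as far as it lies outside the gene as counted here, with each CG pair, the usual site of DNA methylation, in capitals. The Axin2 stretch of 250 bases is at chr11:108920099-108920348 and the Wif1 stretch of 206 bases at chr10:121033754-121033959, both on the plus strand. For Frzb, 229 of the 250 bases before the RefSeq start lie inside the gene as counted, and none is printed.
Axin2: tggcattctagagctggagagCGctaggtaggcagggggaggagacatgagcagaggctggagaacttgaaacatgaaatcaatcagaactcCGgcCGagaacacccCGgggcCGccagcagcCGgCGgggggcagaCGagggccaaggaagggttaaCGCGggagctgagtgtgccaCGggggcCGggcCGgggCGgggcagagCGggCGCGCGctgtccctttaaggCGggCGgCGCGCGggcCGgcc
Wif1: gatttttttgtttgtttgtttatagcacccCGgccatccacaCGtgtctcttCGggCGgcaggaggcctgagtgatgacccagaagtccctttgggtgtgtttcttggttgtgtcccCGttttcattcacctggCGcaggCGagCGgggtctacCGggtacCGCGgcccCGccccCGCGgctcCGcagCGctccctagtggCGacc
These stretches hold 24 and 17 CG pairs, and the median over the 250 bases before the start of 32851 promoters in the table is 6. A window was found for 28 of the 43 genes (31 windows), and 28 of the 31 windows were above that median. Only 1 of the 31 windows belongs to a gene called higher, so windows were not compared by direction.

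The windows were also searched on both strands for the TCF/LEF core, spelled CTTTGAT or CTTTGAA, over the 250 bases before and 50 after the start. It occurred in 3 of the 31 windows (9.68%), against 8.65% of all promoters. The Axin2, Wif1 and Frzb windows did not hold it. Among tested genes it lay in one window each of Wnt11 and Wnt5b, shown with the core in capitals; Wnt5b was called lower and Wnt11 did not pass the test.
Wnt11: acgtgggcggATCAAAGcgacggtccg
Wnt5b: gtaagtctctCTTTGATctgctccctg
The Wnt11 stretch is at chr7:98835051-98835077 (plus strand, core on the opposite strand) and the Wnt5b stretch at chr6:119449441-119449467 (minus strand), inside the gene as counted, since the window is that of an internal transcript start. A search for the vitamin D response element of the DR3 type, a pair of half-sites with 3 bases between (NNN), each half-site being AGGTCA or AGTTCA, or else GGGTCA or GGTTCA, found none in the 31 windows and one in 0.0396% of all promoters. A missing match says only that these letters are not in the window.

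Other genes of the pathway, from a list arranged by role, were also lower more often than higher. That list was chosen with earlier results of these data known, so its share only describes these genes. Of 84 listed, 79 were tested, 35 were called lower (44.3%) and 5 higher (6.33%), and the median log2 fold change was -0.46, against 20.2% lower, 21.3% higher and a median of -0.03 over all genes. The R-spondin axis, which keeps Frizzled receptors at the cell surface, had 5 of 8 tested genes lower and none higher. Lgr6, an R-spondin receptor that marks stem cells of the follicle isthmus, was at 127 to 159.5 CPM in vehicle and 37.3 to 43.7 CPM in MC903 (-1.76 ± 0.12, adjusted p = 2.19e-06, edgeR). Rspo3, a ligand of this receptor family, was at 13.4 to 17.9 CPM in vehicle and 3.81 to 6.10 CPM in MC903 (-1.61 ± 0.17). The ubiquitin ligase gene Znrf3, a feedback target that removes Frizzled proteins, fell by 0.74 ± 0.16 on the log2 scale. The remaining 2 of the 5 were Rnf43, the partner of Znrf3 (-0.46 ± 0.15), and Rspo1 (-0.73 ± 0.25), both named after their values were seen. Their calls were lost without single libraries: Rnf43 in the absence of vehicle replicate 1, 2 or 4 or MC903 replicate 1, 2 or 4 (adjusted p 0.0562 to 0.0718), and Rspo1 in the absence of vehicle replicate 1 or MC903 replicate 2, 3 or 4 (0.0578 to 0.103). Rnf43 also missed the threshold with library sizes alone (0.0676) and with vehicle replicates 2 and 4 both left out (0.165). The adjusted p over all alternatives was 0.0160 to 0.165 for Rnf43 and 0.00750 to 0.103 for Rspo1.

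**Figure D4:**
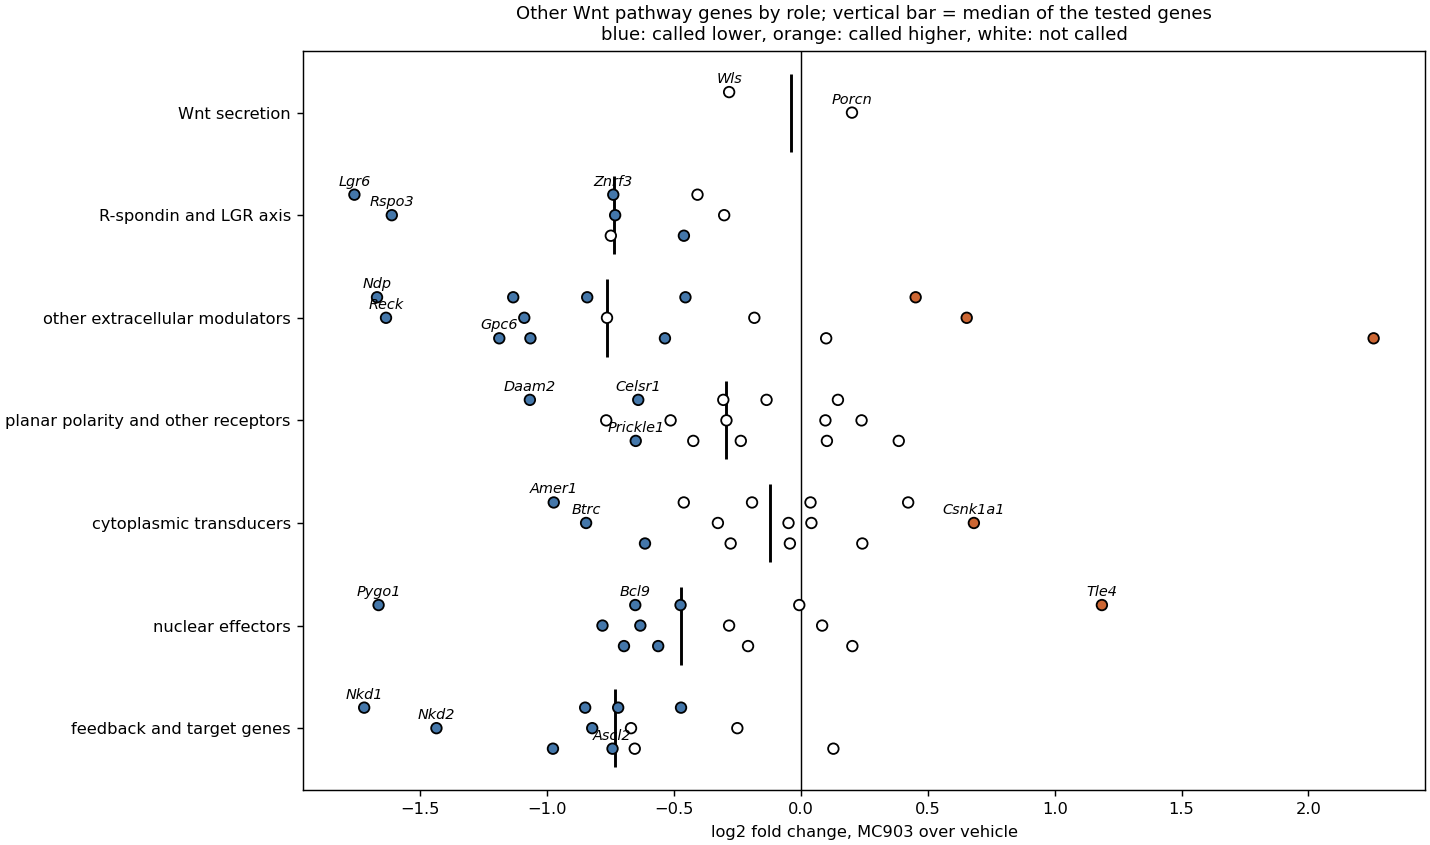
Log2 fold change of MC903 over vehicle for the 79 tested pathway genes outside the main set, 1 point per gene in rows by role, with a vertical bar at each row's median. The medians are lowest for extracellular modulators (-0.76), the R-spondin axis (-0.74) and feedback and target genes (-0.73), and nearest 0 for Wnt secretion (-0.04) and cytoplasmic transducers (-0.12).

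Known feedback and target genes were lower in 8 of 12 tested cases and higher in none, beside 20.2% lower and 21.3% higher over all genes tested. Nkd2 and Nkd1, which bind Dishevelled and limit the signal, were at 33.3 to 41.2 and 2.46 to 6.75 CPM in vehicle and 12.2 to 17.5 and 1.19 to 1.62 CPM in MC903. Both pairs of groups were separate (-1.44 ± 0.15 and -1.72 ± 0.31, adjusted p = 3e-05 and 0.0012, edgeR). Ascl2, a target best known from intestinal stem cells, fell by 0.74 ± 0.15 on the log2 scale. Among nuclear effectors 7 of 13 were lower and 1 was higher, beside the same shares over all genes. Pygo1, a beta-catenin coactivator, was at 13.2 to 18.4 CPM in vehicle and 3.64 to 6.09 CPM in MC903 (-1.67 ± 0.19), and its partner Bcl9 changed by -0.65 ± 0.14. The gene called higher was Tle4, a Groucho-type corepressor that binds TCF factors, with 18.9 to 23.7 CPM in vehicle and 34.8 to 59.3 CPM in MC903 (1.19 ± 0.17, adjusted p = 0.000264, edgeR). Of the 4 TCF/LEF factors, named here after their values were seen, 3 were lower: Tcf7l1 (-0.78 ± 0.18), Tcf7l2 (-0.47 ± 0.13, adjusted p = 0.0115 by edgeR) and Lef1 (-0.70 ± 0.24). The Tcf7l2 call was lost with library sizes alone (edgeR adjusted p = 0.0528) and with vehicle replicates 2 and 4 both left out (0.120), in a range of 0.000927 to 0.120. The fourth, Tcf7, was at 11.6 ± 2.29 CPM in vehicle ears and 11.5 ± 1.94 CPM in MC903 ears and was not called (edgeR adjusted p = 0.978). The Lef1 call was lost in the absence of vehicle replicate 1 or 4 or MC903 replicate 1, 3 or 4 (adjusted p 0.0779 to 0.110, and 0.0113 to 0.110 over all alternatives).

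In the cytoplasm 3 of 14 genes were lower and 1 higher, a share of falls close to the 20.2% of all genes. Amer1, a tumour suppressor that binds APC, fell by 0.97 ± 0.14 on the log2 scale, and Btrc, the ubiquitin ligase subunit that recognises marked beta-catenin, by 0.85 ± 0.16. The third was Ctnnbip1, an inhibitor of beta-catenin (-0.62 ± 0.20), named after its values were seen and lost in the absence of vehicle replicate 1 or 3 or MC903 replicate 3 or 4 (adjusted p 0.0545 to 0.0758, and 0.0120 to 0.0758 over all alternatives). The kinase gene Csnk1a1, whose product primes beta-catenin for degradation, was higher (0.68 ± 0.17, adjusted p = 0.00932, edgeR). Its call was lost on library sizes alone (edgeR adjusted p = 0.0798) and with vehicle replicates 2 and 4 both left out (0.0703). The range over all alternatives was 8.45e-05 to 0.0798. Ctnnb1, beta-catenin itself, was at 217 to 254 CPM in vehicle and 193 to 219.6 CPM in MC903 without passing the test (-0.19 ± 0.12, adjusted p = 0.227, edgeR).

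Other extracellular modulators were lower in 9 of 15 tested cases and higher in 3, beside 20.2% lower and 21.3% higher over all genes tested. Reck, a membrane protein that helps Wnt7 signals, was at 63.9 to 78.0 CPM in vehicle and 16.8 to 28.0 CPM in MC903 (-1.64 ± 0.16, adjusted p = 1.82e-05, edgeR). Ndp, the norrin ligand of Fzd4, was at 9.99 to 10.8 CPM in vehicle and 2.56 to 3.83 CPM in MC903 (-1.67 ± 0.17), and the glypican Gpc6 changed by -1.19 ± 0.15. The 3 higher were the inhibitors Draxin (2.26 ± 0.41) and Sostdc1 (0.45 ± 0.15) and the binding protein Igfbp4 (0.65 ± 0.15; adjusted p = 0.00467 by edgeR, and 0.0521 with vehicle replicates 2 and 4 both left out, in a range of 0.000353 to 0.0521), all named after their values were seen. The Sostdc1 call was lost in the absence of vehicle replicate 1, 2 or 3 or MC903 replicate 2 or 3 (adjusted p 0.0561 to 0.0842), on library sizes alone (0.171) and on upper quartile scaling (0.0617), in a range of 0.00871 to 0.171. Planar polarity and other receptor genes were lower in 3 of 15 cases, also close to the 20.2% of all genes, and higher in none. The 3 were Daam2 (-1.07 ± 0.12), Celsr1 (-0.64 ± 0.13) and Prickle1 (-0.65 ± 0.15). Neither gene of Wnt secretion passed the test: Wls, which carries Wnt proteins to the surface, was at 148 to 219 CPM in vehicle and 125 to 171 CPM in MC903, and Porcn, which attaches their lipid, had a log2 fold change of 0.20 ± 0.21.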

How the data were processed

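Each library's table, as the authors deposited it, lists whole-number counts for Ensembl genes together with CPM and RPKM. The submitters' processing notes name STAR 2.0.4b, Subread, featureCounts 1.4.5 and mm10; the annotation release and strand setting are not given in the sources used here. Recomputed from counts and gene length, the deposited CPM and RPKM matched to within 2.33e-10 and 1.75e-10, and they served only for that check. Symbols were matched for 40254 of 41388 identifiers.

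Genes were filtered with filterByExpr by group (at least 0.6615 CPM in 4 libraries) and scaled with TMM. The model had group as its single term over the 8 libraries and was fitted by edgeR 4.0.16 under R 4.3.3, with its quasi-likelihood F-test. Benjamini-Hochberg adjustment ran over the 16105 genes that passed, at a threshold of 0.05, and SE is the log2 fold change divided by the square root of F. The fit was also run on simulated data, with far fewer changed genes than were called here and no library like vehicle replicate 2. That run therefore cannot show how the scaling copes with such a library. Libraries within a group differed by more than sampling noise (chi-square per degree of freedom of at least 10.1), so each counts once. A floor of 3 counts was used, which covers counting error only.

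The members and gene lists were chosen with earlier results of these data known. Every member is reported; of each pathway role group the 3 genes with the smallest p are named, and both genes of Wnt secretion. Alternatives were DESeq2 1.42.0, limma-voom (limma 3.58.1), a robust fit, other scalings, a stricter filter or none, the replicate number as a block, and leaving out each library; leaving out vehicle replicates 2 and 4 together was added after seeing the data.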

Additional observations from a re-analysis of the deposited data

Results flagged for a closer look

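In 140 groups of 4 values, 8 had a library standing far from the other 3 by Dixon's criterion, where chance gives about 1 in 20; 3 of the 8 were in MC903 replicate 1. Fzd6 was at 88.5 CPM in MC903 replicate 1, with the other MC903 ears at 60.0 to 63.2 CPM. Dkk2 was at 18.8 CPM in the same library, below 25.8 to 26.7 CPM in the others, and at 48.2 CPM in vehicle replicate 3, above 37.5 to 38.7 CPM. Nkd2 was at 17.5 CPM in MC903 replicate 1, above 12.2 to 12.8 CPM. Amer1 was at 29.0 CPM in MC903 replicate 4, above 21.1 to 21.3 CPM. Porcn was at 14.3 CPM in vehicle replicate 1, above 9.26 to 10.1 CPM. Csnk1a1 was at 287.5 CPM in vehicle replicate 2, the library with salivary transcripts, below 357 to 366 CPM. Ndp was at 9.99 CPM in vehicle replicate 4, just under 10.7 to 10.8 CPM.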

How the results depend on the processing

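Of the 22 called Wnt genes, 13 kept direction and call in all 18 alternatives: Wnt2, Wnt3, Wnt10a, Wnt10b, Fzd1, Fzd2, Fzd9, Wif1, Frzb, Dkk2, Sfrp1, Axin2 and Notum. The other 9 kept their direction and lost the call in at least 1. The count of Wnt genes higher, 3 as reported, was 5 with RLE factors and with DESeq2, and 3 to 5 when single libraries were left out, highest without vehicle replicate 4; Wnt4, Wnt10a and Sfrp1 were among the calls in each of these. With library sizes alone it was 2, without Wnt4, and with vehicle replicates 2 and 4 left out it was 3, with Wnt16 in place of Wnt4. The count lower, 19, was 14 to 18 without single libraries and 11 with vehicle replicates 2 and 4 both left out, a fit on fewer samples that lost Fzd3, Fzd4, Wnt2b, Wnt5b, Lrp5, Dkk3, Sfrp2 and Sfrp5. Other pathway genes higher, 5 as reported, numbered 3 with library sizes alone and 3 without those 2 vehicle libraries. Fzd5, not called, was -0.11 and ran from -0.18 to 0.015 without single libraries, above 0 only without MC903 replicate 1; the cause was not tested. Tcf7, not called, was -0.0069 and turned to 0.010 with RLE factors, 0.016 with DESeq2 and up to 0.090 without single libraries (range -0.13 to 0.090, above 0 when replicate 1 or 4 of either group was left out); its adjusted p was at least 0.589 in all alternatives. No pairing of the mice by replicate number was visible: same-numbered libraries correlated at -0.204 to 0.0568 in their deviations from group means, and 0 libraries correlated best with their own number. With only 4 same-numbered pairs, that check cannot exclude a pairing, and the labels state none. With the replicate number as a block (replicate block), 4 Wnt genes were called higher, Wnt16 (adjusted p = 0.0298) besides the 3, and 15 lower. For genes near the floor, such as Wnt10b in MC903 ears, which passed the filter through the vehicle group alone, depth limits the precision of the fold change.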
